A study of Mus musculus with 12 samples.

Results

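The 33 genes described here encode the glucose transporters, the enzymes of glycolysis, the lactate dehydrogenases and lactate transporters, and the enzymes of the pentose phosphate pathway. They were taken from a list of symbols, matched to the Ensembl identifiers of a count table of 53801 genes, and all 33 were found. RNA-seq reads were counted in eosinophils of control and Atg5-knockout mice, taken from the blood and from the bone marrow, with 3 libraries in each of the 4 groups. Control mice carried 1 copy of eoCre, the Cre recombinase placed under the eosinophil peroxidase promoter, together with the Il5 transgene. Atg5-knockout mice carried eoCre, the Il5 transgene and Atg5 flox/flox, so that both genotypes share the recombinase and the surplus of interleukin-5 that makes eosinophils abundant, and neither stands for eosinophils of an unmodified mouse. Eosinophils were enriched by removing T cells, B cells, macrophages and neutrophils with antibodies, not by selecting eosinophils. The age of these animals is not given in the sources used here.

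Glycolysis splits glucose into pyruvate through a chain of enzymes in the cytosol, and lactate dehydrogenase can then turn pyruvate into lactate, which leaves the cell through monocarboxylate transporters. The pentose phosphate pathway branches off after the hexokinase step. Its oxidative arm makes NADPH, which in granulocytes feeds the oxidase of the respiratory burst, and its non-oxidative arm exchanges carbon between sugar phosphates, making ribose for nucleotides or returning carbon to glycolysis. Several steps can be run by different isoenzymes, which are encoded by separate genes and differ in regulation and in the tissues that use them.

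The libraries held from 18885052 to 30270166 gene counts. Levels within a gene are given in CPM, the count scaled to the library's size with TMM factors over the 12 libraries, and levels between genes in TPM, which also divides by the length of the gene's merged exons. Control blood library 1 stood apart, with 14.6% of its counts on 12 red cell genes, against at most 1.42% in any other library. Eosinophil genes were detected throughout: the 10 markers took 8.04 to 10.2% of the counts in bone marrow and 1.8 to 4.05% in blood, a sum to which the granule gene Prg2 gave more than any other. In each genotype 6 of the 10 were lower and 2 higher in blood. Prg2 stood at 41333 to 55590 CPM in bone marrow and 7032 to 23796 CPM in blood, while the surface receptor gene Siglecf went from 346 to 464 CPM in bone marrow to 590.3 to 930 CPM in blood. The 12 genes of proliferating cells, such as Mki67 and Top2a, took 0.203 to 0.286% in bone marrow and 0.0153 to 0.0239% in blood, and all 12 were lower in blood in both genotypes. Neutrophil markers took 2.28 to 3.24% in bone marrow and 1.18 to 2.11% in blood. Markers of other cells were higher in blood, in control and in Atg5-knockout libraries: 10 of 12 and 3 of 11 tested for platelets, 4 of 8 and 7 of 10 for B cells, 4 of 5 and 9 of 9 for T cells, and 7 and 6 of 11 for monocytes and macrophages. Of the platelet genes 0 and 1 were lower, and of the monocyte and macrophage genes 1 and 2. Their sums stayed small in blood, at 0.0073 to 0.041% of the counts for platelets, 0.0216 to 0.29% for B cells, 0.00291 to 0.04% for T cells and 0.282 to 0.308% for monocytes and macrophages. Adgre1 gave more than any other gene to the last sum in blood, at 1187 to 1644 CPM, and which cells its transcripts came from was not tested. The calls among red cell genes differed between the genotypes. In control 5 of 11 tested were called higher and 0 lower in blood, and 9 had a positive log2 fold change. In Atg5-knockout libraries 0 of 11 were called higher and 6 lower, and 5 had a positive log2 fold change. Atg5 itself stood at 40.5 to 45.4 CPM in control and 30.6 to 34 CPM in Atg5-knockout bone marrow (log2 fold change -0.44, adjusted p = 0.157), and at 40.1 to 58.7 and 36.6 to 52.4 CPM in blood (log2 fold change -0.01, adjusted p = 1). The count covers every exon of Atg5 and not the deleted part alone, so it does not test the deletion.

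The 33 genes together took 1.46 to 1.64% of the counts in control bone marrow and 1.49 to 1.56% in Atg5-knockout bone marrow. In blood they took 1.12 to 1.55% in the control and 1.26 to 1.38% in the Atg5-knockout libraries. On the TPM scale the most abundant transcript of the pathway was that of Taldo1, the transaldolase of the non-oxidative pentose phosphate arm, in each of the 4 groups. Its level was 1666 ± 34 TPM in control bone marrow and 2965 ± 979 TPM in control blood (mean ± SD, n = 3), and it ranked between 38 and 62 among all genes of the table. Aldoa, the main aldolase, came next, at 1588 ± 212 TPM in control bone marrow and 1259 ± 387 TPM in control blood, ranking between 60 and 116. Ldha, Pkm, Tkt, Pgk1 and Tpi1 followed in control bone marrow, at 784 ± 100.2, 605 ± 74.4, 500.3 ± 35.4, 482 ± 95.2 and 468.5 ± 77.2 TPM. Taldo1 and Aldoa overlapped within their SDs there, as did neighbours from Pkm down, and in control bone marrow library 1 Aldoa (1830 TPM) lay above Taldo1 (1704 TPM). At the other end, Pfkfb1 and Pfkfb2, which encode bifunctional regulators of phosphofructokinase, stood at 0.471 to 1.26 TPM in the group means. Both had between 14 and 73 counts per library.

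**Figure D1:**
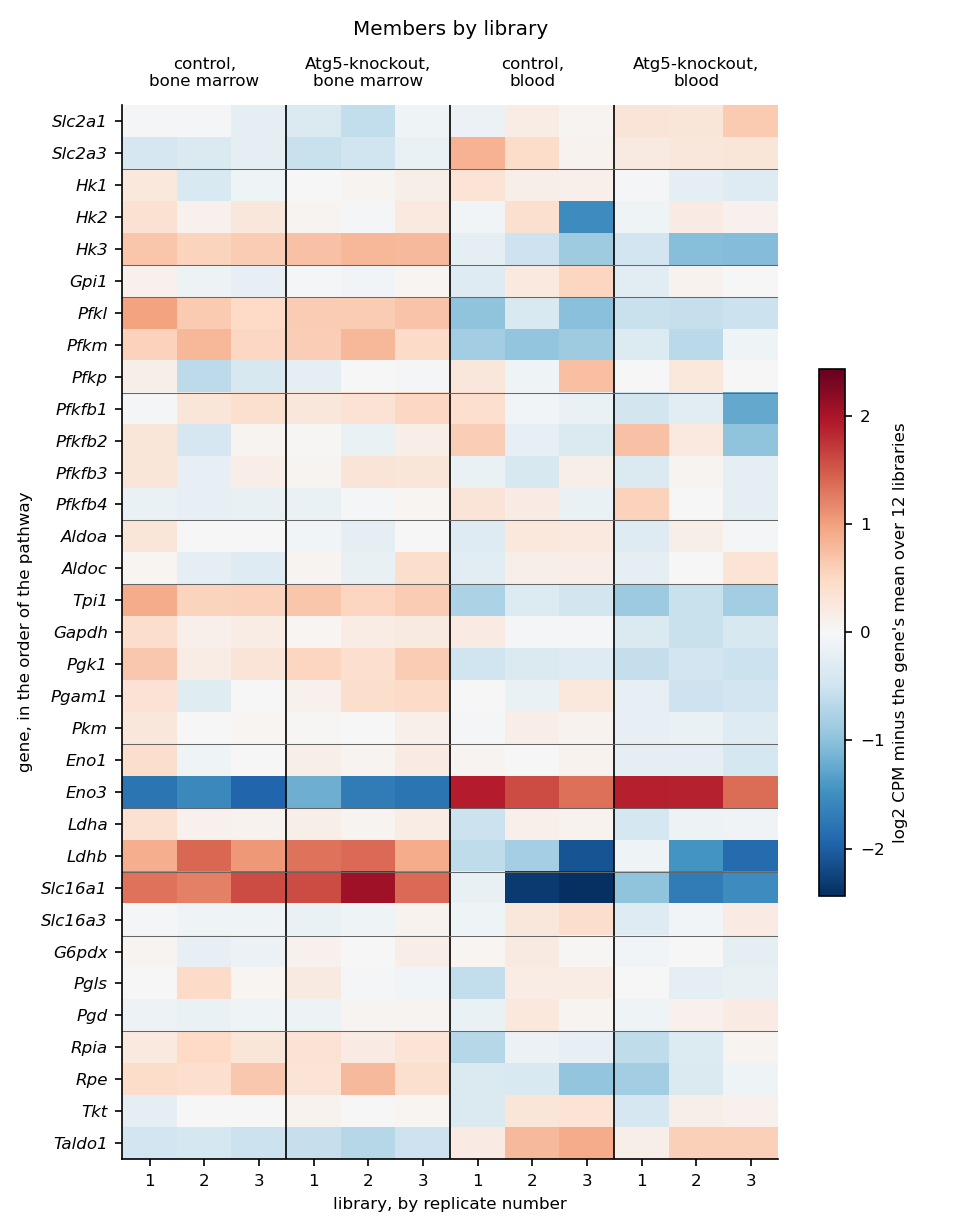
Each row is 1 of the 33 genes in the order of the pathway and each column 1 of the 12 libraries, and the colour is the log2 CPM minus the gene's mean over the 12 libraries. Eno3, Taldo1 and Slc2a3 are red in blood, and Slc16a1, Ldhb, Hk3, Pfkl, Pfkm, Tpi1, Pgk1 and Rpe are blue there, in both genotypes. Rpia is blue in blood too, except in 1 Atg5-knockout library.

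Blood was compared with bone marrow within each genotype. In control eosinophils 3 of the 33 genes were higher in blood (9.09%, against 16.2% of the 13669 genes tested) and 9 were lower (27.3%, against 18%). In Atg5-knockout eosinophils 4 were higher (12.1%, against 23.5% of 13853) and 12 were lower (36.4%, against 24.1%). The higher genes in both genotypes, which share no library, were Slc2a3, Eno3 and Taldo1. The lower genes in both were Hk3, Pfkl, Pfkm, Tpi1, Pgk1, Ldhb, Slc16a1, Rpia and Rpe. The median log2 fold change of the 33 genes was -0.05 in control and -0.24 in Atg5-knockout eosinophils, against -0.00293 and -0.0103 over all genes tested. A call here means an adjusted p under 0.05 in edgeR's quasi-likelihood test. The source labels do not say whether libraries with the same number came from the same mouse, so the p-values measure the spread between these libraries only. In bulk RNA, fewer cells of a type and less RNA per cell cannot be told apart. The part of the shifts in the markers of proliferating cells, eosinophils, neutrophils, red cells, platelets, lymphocytes and monocytes in these differences was not tested.

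**Figure D2:**
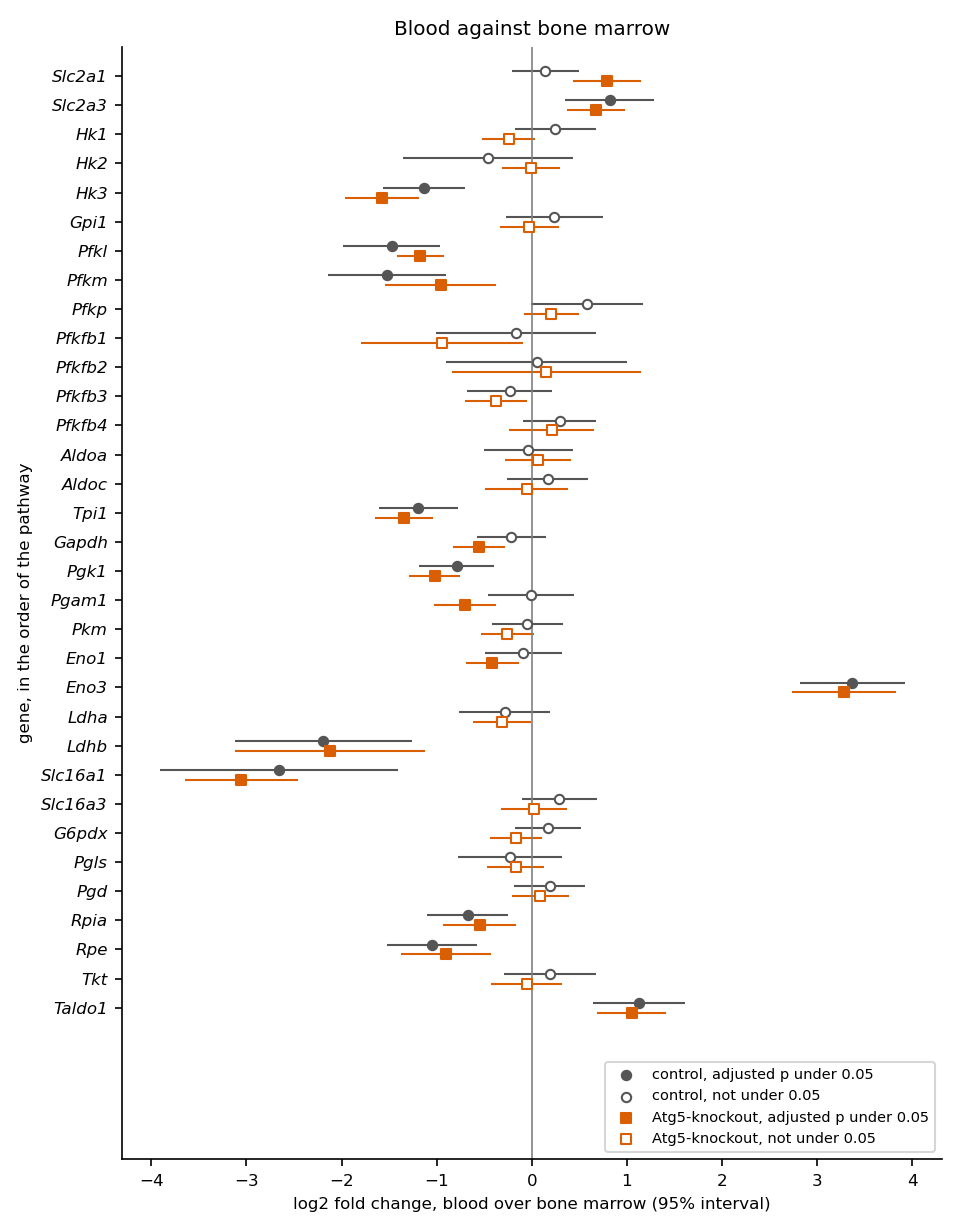
Log2 fold change of each of the 33 genes in blood over bone marrow, with its 95% interval, for control (circles) and Atg5-knockout eosinophils (squares), with filled symbols at an adjusted p under 0.05. Eno3 lies farthest to the right, at 3.37 and 3.28, and Slc16a1 farthest to the left, at -2.66 and -3.05.

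Glucose enters cells through the GLUT transporters. Slc2a3, which encodes the high-affinity transporter GLUT3, was found at 291, 303 and 325 CPM in control bone marrow and at 695, 527 and 412 CPM in control blood. In Atg5-knockout mice it stood at 264, 276 and 345 CPM in bone marrow and at 452, 470 and 473 CPM in blood. In both genotypes every blood library lay above every bone marrow library, with a fold of 1.76 in control (log2 fold change 0.82 ± 0.21 SE, adjusted p = 0.0155) and 1.60 in Atg5-knockout eosinophils (0.67 ± 0.14, adjusted p = 0.00354). The control value was carried in part by blood library 1, the one rich in red cell genes, and without it the log2 fold change was 0.61 with an adjusted p of 0.00824. The call in control eosinophils was lost when any of the 3 bone marrow libraries was left out, with adjusted p-values of up to 0.0686. Slc2a1, which encodes the widely used transporter GLUT1, was called in Atg5-knockout eosinophils only. It stood at 90.6, 91.7 and 80.1 CPM in control bone marrow and at 85.3, 107 and 99.1 CPM in control blood, which overlap (log2 fold change 0.14 ± 0.16, adjusted p = 0.514). In Atg5-knockout eosinophils it rose from 73.5, 62.3 and 87.3 CPM in bone marrow to 118, 116.0 and 147 CPM in blood (0.79 ± 0.16, adjusted p = 0.00341). The difference between these 2 changes was 0.62 ± 0.22 on the log2 scale and did not pass the test (adjusted p = 0.925).

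Hexokinases trap glucose in the cell by phosphorylating it. Hk3, the isoenzyme known from myeloid cells, was measured at 138, 126 and 134 CPM in control bone marrow and at 74.5, 61.3 and 47.3 CPM in control blood. In Atg5-knockout mice the values were 141, 152 and 149 CPM in bone marrow and 62.6, 42.3 and 41.5 CPM in blood. The blood libraries lay below the bone marrow libraries without overlap, 2.19-fold lower in control (log2 fold change -1.13 ± 0.19, adjusted p = 0.00246) and 2.98-fold lower in Atg5-knockout eosinophils (-1.58 ± 0.17, adjusted p = 0.000137). Hk1, the general isoenzyme, and Hk2, the inducible one, did not pass in either genotype, with log2 fold changes of 0.25 and -0.24 for Hk1 and of -0.46 and -0.01 for Hk2. Hk2 was the most uneven of the 3 in control blood, at 224, 308 and 80.9 CPM. As a share of the hexokinase TPM, Hk3 went from 36.5 ± 1.79% to 24.6 ± 4.91% in control and from 40.4 ± 2.26% to 19.2 ± 4.53% in Atg5-knockout eosinophils between bone marrow and blood. Gpi1, the isomerase that follows, stood between 1087 and 1921 CPM in the 12 libraries and passed in neither genotype (log2 fold changes 0.24 and -0.02), although without control blood library 1 its control value was 0.44 with an adjusted p of 0.0332.

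Phosphofructokinase commits sugar to glycolysis and is built from liver-type (Pfkl), muscle-type (Pfkm) and platelet-type (Pfkp) subunits. Pfkl was found at 123, 97.8 and 87.8 CPM in control bone marrow and at 31.8, 48.8 and 31.3 CPM in control blood, a 2.78-fold lower level (log2 fold change -1.47 ± 0.23, adjusted p = 0.00157). In Atg5-knockout mice it fell from 96.3, 96.7 and 102 CPM to 43.2, 42.5 and 43.6 CPM (-1.17 ± 0.11, adjusted p = 5.51e-05). Pfkm was scarce and fell alongside, from 6.16 to 7.63 CPM in control bone marrow to 2.24 to 2.43 CPM in control blood (-1.52 ± 0.27, adjusted p = 0.00344). In Atg5-knockout eosinophils the ranges were 6.01 to 7.58 and 2.75 to 4.03 CPM (-0.96 ± 0.26, adjusted p = 0.0137), and that call was lost without Atg5-knockout bone marrow library 2 (adjusted p = 0.0688). Pfkp passed in neither genotype. Its log2 fold changes were 0.58 ± 0.26 in control (adjusted p = 0.115) and 0.21 ± 0.13 in Atg5-knockout eosinophils (adjusted p = 0.207). On the TPM scale Pfkl made up 62.8 ± 2.25% of the family in control bone marrow and 33.3 ± 11.3% in control blood, while Pfkp went from 28.8 ± 3.81% to 62.5 ± 11.4%. In Atg5-knockout mice Pfkl went from 57.4 to 61.1% of the family over the bone marrow libraries to 36.6 to 40.2% over the blood libraries, and Pfkp from 32.3 ± 1.6% to 54.9 ± 3.28%. By TPM, Pfkl was the larger share in the bone marrow means and Pfkp in the blood means of both genotypes. TPM divides by merged exon lengths of 6675 bases for Pfkl and 13401 for Pfkp. In CPM, not divided by length, Pfkl and Pfkp averaged 103 and 96 in control bone marrow, with SDs of 18.4 and 27.5. They averaged 98.3 and 107.3 CPM in Atg5-knockout bone marrow, so the order there depends on length. In blood Pfkp was higher in CPM too, at 144.8 against 37.3 in control and 122.3 against 43.1 in Atg5-knockout mice. These shares were not tested. The 4 Pfkfb genes, whose products set the level of the activator of phosphofructokinase, gave no call in either genotype. Pfkfb3 and Pfkfb4 were the main ones, at 13.8 to 22.2 and 18.3 to 22.5 TPM in the group means. The log2 fold changes of Pfkfb3 were -0.23 and -0.38, of Pfkfb4 0.29 and 0.21, of Pfkfb1 -0.16 and -0.95, and of Pfkfb2 0.05 and 0.15.

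**Figure D3:**
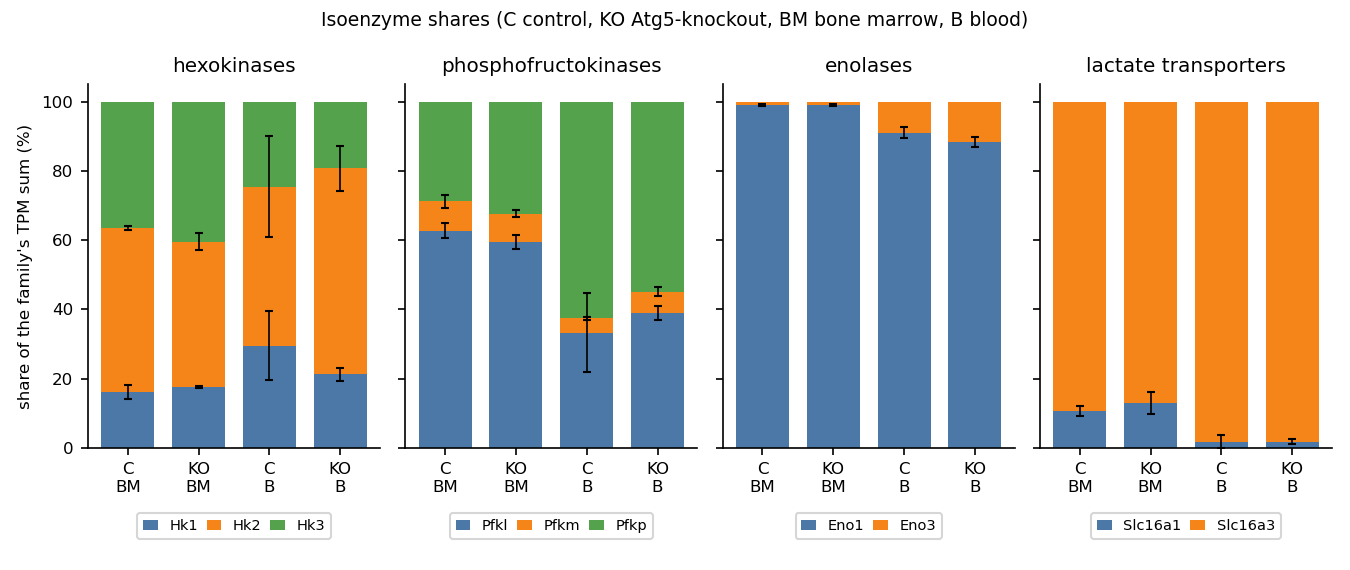
Mean share of each isoenzyme in the TPM sum of its family, in percent, in control (C) and Atg5-knockout (KO) eosinophils of bone marrow (BM) and blood (B), with n = 3, and error bars giving the SD of the share of the segment below them. By TPM, which depends on gene length, Pfkl is the larger share of the phosphofructokinases in bone marrow and Pfkp in blood. Eno3 goes from about 1% of the enolases in bone marrow to 8.88% and 11.6% in blood.

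Aldolase cleaves the sugar, and triose phosphate isomerase lets both fragments proceed. Aldoa and Aldoc, the latter a minor share of 1.3 to 1.8% of the family, did not pass, with log2 fold changes between -0.05 and 0.17. Tpi1, the isomerase, was measured at 655, 510 and 513 CPM in control bone marrow and at 206, 276 and 257 CPM in control blood. In Atg5-knockout mice it stood at 559, 504 and 534 CPM in bone marrow and at 189, 239.8 and 194 CPM in blood. The groups were far apart in both genotypes, 2.29-fold lower in blood in control (-1.19 ± 0.18, adjusted p = 0.00159) and 2.53-fold lower in Atg5-knockout eosinophils (-1.34 ± 0.14, adjusted p = 8.91e-05).

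Pgk1, the kinase that yields the first ATP of the lower part of the pathway, stood at 561, 401 and 442 CPM in control bone marrow and at 254, 279 and 284 CPM in control blood (-0.79 ± 0.17, adjusted p = 0.00829). In Atg5-knockout mice it stood at 513, 468 and 543 CPM in bone marrow and at 238, 258 and 246 CPM in blood (-1.02 ± 0.12, adjusted p = 0.000193). Its blood libraries lay below every bone marrow library. Gapdh, which comes before Pgk1, and Pgam1 and Eno1, which come after it, were lower in blood in Atg5-knockout eosinophils. Gapdh changed by -0.56 ± 0.12 (adjusted p = 0.00553), Pgam1 by -0.71 ± 0.14 (adjusted p = 0.0037) and Eno1 by -0.41 ± 0.12 (adjusted p = 0.0211) on the log2 scale. In control eosinophils the same genes gave -0.21 ± 0.16, -0.01 ± 0.20 and -0.09 ± 0.18 and did not pass. The difference between the genotypes did not pass the test for any of them (interaction -0.37, -0.72 and -0.35, adjusted p = 0.942, 0.925 and 0.942). The Eno1 call in Atg5-knockout eosinophils was lost with the replicate number as a block (adjusted p = 0.0609) and without Atg5-knockout blood library 3 or bone marrow library 1 or 3. Pkm, the pyruvate kinase that ends the pathway, stood between 978 and 1469 CPM and passed in neither genotype (-0.05 and -0.26).

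The largest change among the 33 genes was in the enolase step. Eno3, the enolase known from muscle, was scarce in bone marrow, at 2.62, 3.04 and 2.35 CPM in control and 3.92, 2.75 and 2.62 CPM in Atg5-knockout libraries. In blood it reached 33.8, 27.0 and 22.6 CPM in control and 33.3, 33 and 22.9 CPM in Atg5-knockout libraries. The values rested on 71 to 115 counts per library in bone marrow and on 449 to 778 in blood. The rise was 10.3-fold in control (log2 fold change 3.37 ± 0.24, adjusted p = 2.95e-05) and 9.72-fold in Atg5-knockout eosinophils (3.28 ± 0.24, adjusted p = 1.58e-05), and it ranged from 3.21 to 3.51 and from 3.16 to 3.47 when each library was left out in turn. Even so, Eno1 remained the main enolase, since Eno3 made up 0.906 ± 0.238% of the enolase TPM in control bone marrow and 8.88 ± 1.67% in control blood, and 1.01 ± 0.233% and 11.6 ± 1.38% in Atg5-knockout mice. No other annotated gene shared exon bases with Eno3.

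At the end of the pathway, the scarcer lactate dehydrogenase and the scarcer lactate transporter were lower in blood, and the abundant one of each pair did not pass. Ldha, the main lactate dehydrogenase with 98.5 to 99.6% of the family's TPM, gave log2 fold changes of -0.29 and -0.31 and did not pass (adjusted p = 0.326 and 0.0851). Ldhb, the heart-type subunit, stood at 6.21, 8.88 and 6.96 CPM in control bone marrow and at 2.19, 1.89 and 0.785 CPM in control blood. In Atg5-knockout mice it stood at 8.41, 8.71 and 6.30 CPM in bone marrow and at 3.12, 1.22 and 0.919 CPM in blood. It was lower in blood in both (-2.19 ± 0.41, adjusted p = 0.00404, and -2.12 ± 0.44, adjusted p = 0.00407), with only 16 to 73 counts per blood library. Slc16a1, which encodes the monocarboxylate transporter MCT1, showed the deepest fall of the 33. It stood at 25.7, 24.1 and 31.0 CPM in control bone marrow and at 9.07, 2.06 and 1.91 CPM in control blood, and at 31.0, 43.0 and 27.0 CPM and 5.26, 3.16 and 3.57 CPM in Atg5-knockout mice. Blood was 6.33-fold lower in control (-2.66 ± 0.55, adjusted p = 0.00658) and 8.29-fold lower in Atg5-knockout eosinophils (-3.05 ± 0.26, adjusted p = 3.74e-05). The highest of the control blood values was that of library 1, the one rich in red cell genes, and without it the log2 fold change was -3.76 (adjusted p = 2.42e-06). Slc16a3, which encodes MCT4, the exporter of lactate from glycolytic cells, did not pass in either genotype with all libraries (0.29 and 0.02) and had the larger share of the family throughout, 89.3 ± 1.42% in control bone marrow and 98.2 ± 1.91% in control blood. Without control blood library 1 its control value was 0.44 with an adjusted p of 0.0217.

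In the pentose phosphate pathway no gene of the oxidative arm passed, and genes of the non-oxidative arm were called in both directions. G6pdx, the entry enzyme, Pgls, the lactonase, and Pgd, which releases the second NADPH, gave log2 fold changes between -0.23 and 0.19 and no call in either genotype. Taldo1 stood at 1581, 1615 and 1516 CPM in control bone marrow and at 2498, 3794 and 4072 CPM in control blood (1.13 ± 0.21, adjusted p = 0.0044). In Atg5-knockout mice it stood at 1476, 1345 and 1544 CPM in bone marrow and at 2406, 3262 and 3255 CPM in blood (1.05 ± 0.16, adjusted p = 0.00078). The rises were 2.18-fold and 2.07-fold, and the blood libraries lay above every bone marrow library. Rpia and Rpe, the isomerase and the epimerase that sort pentose phosphates, went the other way. Rpe stood at 34.9, 33.9 and 40.5 CPM in control bone marrow against 20.1, 19.8 and 13.2 CPM in control blood, and at 32.2, 44.3 and 33.5 CPM against 14.3, 20.1 and 23.8 CPM in Atg5-knockout mice (-1.05 ± 0.21, adjusted p = 0.00544, and -0.90 ± 0.21, adjusted p = 0.00714). Rpe shared 17.9% of its exon bases with Kansl1l on the other strand, and without strand in the counting, reads of that part cannot be told apart. Rpia stood at 159, 189 and 167 CPM in control bone marrow and 83.4, 123 and 118 CPM in control blood, and at 173, 156 and 171 CPM against 88.7, 108 and 142 CPM in Atg5-knockout mice (-0.68 ± 0.19, adjusted p = 0.0233, and -0.55 ± 0.17, adjusted p = 0.0249). Its groups did not overlap, but it had the highest adjusted p of the 9 lower genes called in both genotypes. The call was lost without any 1 of the control bone marrow libraries (adjusted p up to 0.0946), and without any 1 of the Atg5-knockout bone marrow libraries or Atg5-knockout blood library 2 (up to 0.0799). Tkt, the transketolase that works beside Taldo1, did not pass (0.19 and -0.06), though without control blood library 1 it gave 0.38 with an adjusted p of 0.0304.

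**Figure D4:**
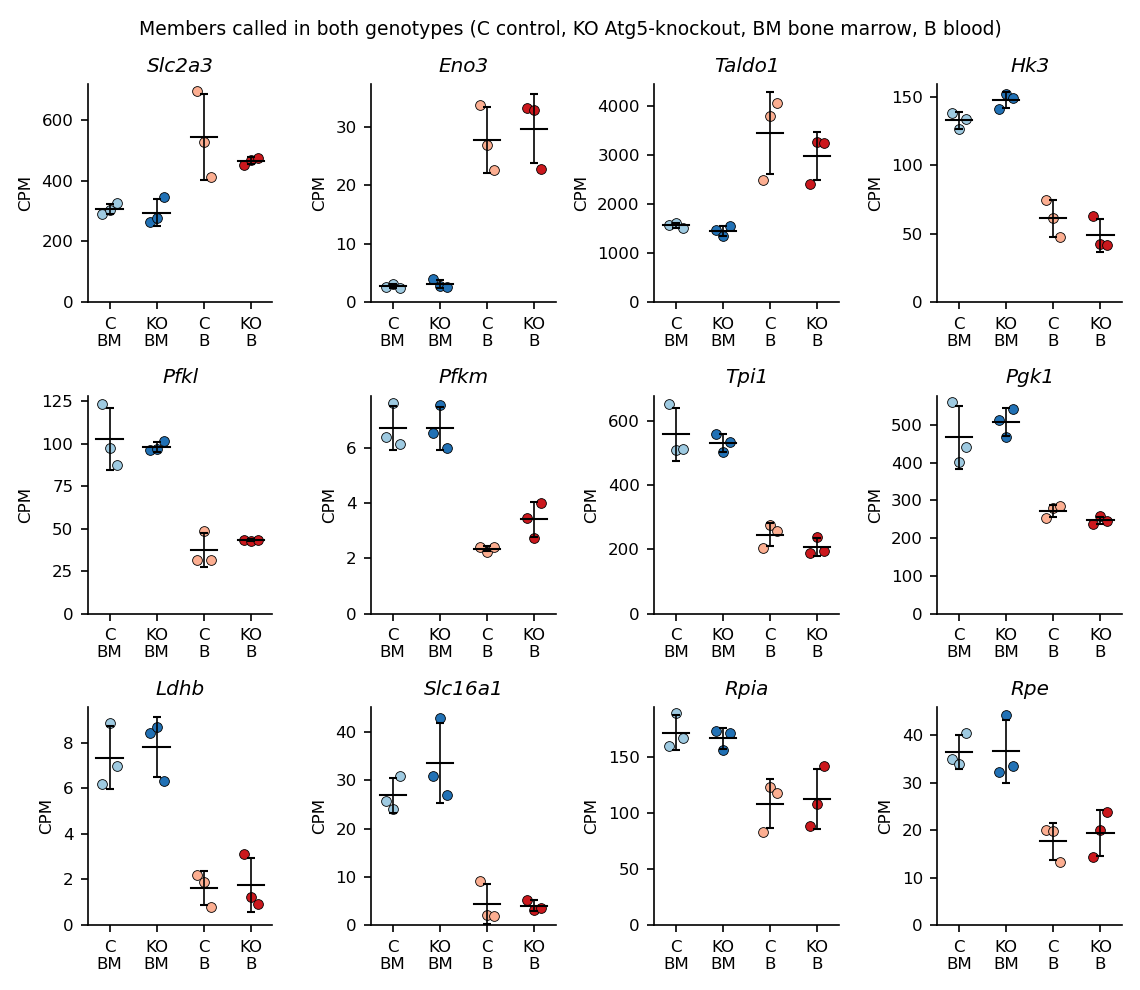
CPM per library of the 12 genes called in both genotypes, in control (C) and Atg5-knockout (KO) eosinophils of bone marrow (BM) and blood (B), with the mean as a line and the SD as an error bar (n = 3). The blood libraries lie above every bone marrow library of their genotype for Slc2a3, Eno3 and Taldo1 and below for the other 9 genes.

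Genes of the pathway were called in both directions, so the sequence in front of 3 of the 12 genes called in both genotypes is shown: Pgk1 and Rpe, lower in blood, and Taldo1, higher in blood. They are those with 1 listed start and no transcript of their own gene reaching into the stretch, and are RefSeq sequences on GRCm38.p6 from 250 to 31 bases before the start of transcription, on the strand of the gene. All 3 lie on the plus strand, at chrX:106186850-106187069, chr1:66700581-66700800 and chr7:141391910-141392129. Capitals mark the letters ACGTG and GCGTG on either strand, the core of the sites that hypoxia-inducible factors are known to bind, and the 2 strings can overlap across strands.
Pgk1: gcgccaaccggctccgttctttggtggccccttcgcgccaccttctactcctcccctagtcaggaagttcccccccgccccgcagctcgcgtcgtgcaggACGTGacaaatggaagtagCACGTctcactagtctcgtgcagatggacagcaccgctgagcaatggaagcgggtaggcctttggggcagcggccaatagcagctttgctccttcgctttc
Rpe: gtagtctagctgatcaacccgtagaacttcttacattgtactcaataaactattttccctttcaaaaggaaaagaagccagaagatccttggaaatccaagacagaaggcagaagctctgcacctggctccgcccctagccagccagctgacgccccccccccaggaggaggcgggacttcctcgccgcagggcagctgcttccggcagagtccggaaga
Taldo1: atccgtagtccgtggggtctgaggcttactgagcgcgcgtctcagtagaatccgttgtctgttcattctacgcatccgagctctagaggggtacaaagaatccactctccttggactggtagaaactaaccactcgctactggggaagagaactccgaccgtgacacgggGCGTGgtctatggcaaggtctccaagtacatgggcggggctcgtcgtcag
Pgk1 held 2 matches, Taldo1 held 1 and Rpe held none. Of the 32 genes with a listed promoter, all but Slc2a3, 24 held at least 1 match in these 220 bases (75.0%), against 34.6% of 27025 genes. Both letter strings hold the pair CG, and the median number of CG pairs in the stretch was 11 for the 32 genes against 5 for all genes. Of the genes called in both genotypes, 7 of the 9 lower ones held a match, as did the 2 higher ones with a listed promoter. The search was chosen after the values were seen, and a match is a description of the letters, not a site in use.

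Atg5-knockout eosinophils were compared with control eosinophils within each tissue, which asks what loss of the autophagy gene does to the transcripts. In bone marrow none of the 33 genes was called by edgeR, by DESeq2 or by limma-voom. Over all 13781 genes tested edgeR called 0.145% higher and 0.203% lower, and DESeq2 called 60 genes higher and 136 lower. In edgeR none of the 33 genes had an unadjusted p under 0.05. The lowest adjusted p was 0.555, for Slc2a1 (log2 fold change -0.26 ± 0.13). The median log2 fold change was -0.0042, the largest was 0.29, for Slc16a1, and the 95% interval lay within a 2-fold change in either direction for all 33 genes and within 1.5-fold for 27. The Atg5-knockout libraries lay above the control libraries without overlap for 2 genes, Hk3 and Tkt (6.06%, against 8.7% of all genes), and below for none (against 5.65%). Markers moved here too: 11 of 11 red cell genes were positive (median log2 fold change 1.38, 5 above every control library). Of these 1 was called by edgeR (adjusted p = 0.0412). So were 12 of 12 proliferation genes positive (0.20, 8 above) and 10 of 11 platelet genes (0.62, 5 above), none called. Of the others, 7 of 10 eosinophil, 6 of 12 neutrophil, 6 of 8 B cell, 1 of 3 T cell and 5 of 11 monocyte and macrophage genes were positive. The part of these shifts in the 33 genes was not tested.

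In blood none of the 33 genes was called either, by edgeR, DESeq2 or limma-voom. Over all 13460 genes tested edgeR called 0.0371% higher and 0.0% lower, and DESeq2 called 13 genes higher and 9 lower. In edgeR every adjusted p of the 33 genes was 1. Before adjustment only Gapdh was under 0.05 in edgeR, at 0.0287 (log2 fold change -0.45 ± 0.17). Intervals were wider than in bone marrow, with a median half-width of 0.52 against 0.27 on the log2 scale, and 27 of the 33 lay within a 2-fold change. Those of Pfkfb1, Pfkfb2, Pfkm, Hk2, Ldhb and Slc16a1 reached beyond it. The signs were uneven: 21 genes were negative and 12 positive, with a median of -0.12 against 0.00622 over all genes. The Atg5-knockout libraries lay below every control library for 7 of the 33 genes, Hk1, Pfkfb1, Gapdh, Pgam1, Pkm, Eno1 and G6pdx (21.2%, against 4.03% of all genes), and above for Slc2a1 and Pfkm (6.06%, against 3.52%). Gapdh stood at 53.0, 45.1 and 45.1 CPM in control and at 36.3, 31.9 and 35.1 CPM in Atg5-knockout blood. Eno1 stood at 889, 850.1 and 904 CPM in control and at 725, 719 and 636 CPM in Atg5-knockout blood. Pgam1 stood at 95, 84.2 and 113 CPM in control and at 82.1, 66.4 and 68.1 CPM in Atg5-knockout blood, the highest of which lay just under the lowest control library. Hk1 stood at 180, 157 and 154 CPM against 139, 119.9 and 114 CPM, and Slc2a1 went the other way, at 85.3, 107 and 99.1 CPM against 118, 116.0 and 147 CPM. Markers moved in the same comparison, none of them called. Of the platelet genes 12 of 12 were negative (median log2 fold change -2.26, 5 below every control library), as were 8 of 8 red cell genes (-3.56, 3 below). So were 9 of 10 eosinophil genes (-0.33, 1 below), 9 of 12 proliferation genes (-0.26, 3 below) and 10 of 12 neutrophil genes (-0.16, 1 below). Lymphocyte markers went the other way, with 10 of 10 B cell genes (0.94) and 10 of 10 T cell genes (0.66) positive. Of the monocyte and macrophage genes 4 of 10 were positive. The platelet and red cell sums were highest in control blood library 1. Platelet genes took 0.041, 0.0109 and 0.016% of the counts in control and 0.00918, 0.00799 and 0.0073% in Atg5-knockout blood. Red cell genes took 14.6, 0.538 and 1.42% in control and 0.73, 0.422 and 0.558% in Atg5-knockout blood. The part of these markers in the values of the 33 genes was not tested. The separations are small, from -0.17 for G6pdx to -0.66 for Pfkfb1 on the log2 scale, and the genes of 1 pathway within the same 6 libraries are not independent of each other. With the replicate number as a block in edgeR, the unadjusted p was 0.0141 for Gapdh, 0.0217 for Hk1 and 0.0274 for Pgam1. It was 0.028 for Slc2a1 and 0.0327 for Eno1, and none of the 33 genes passed after adjustment (lowest 0.569). No label pairs the blood libraries, and the pairing was read from these same counts, so these p-values add no separate evidence. Slc16a1 depended on control blood library 1: its log2 fold change was -0.09 with that library and 1.02 without it (adjusted p = 0.878).

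**Figure D5:**
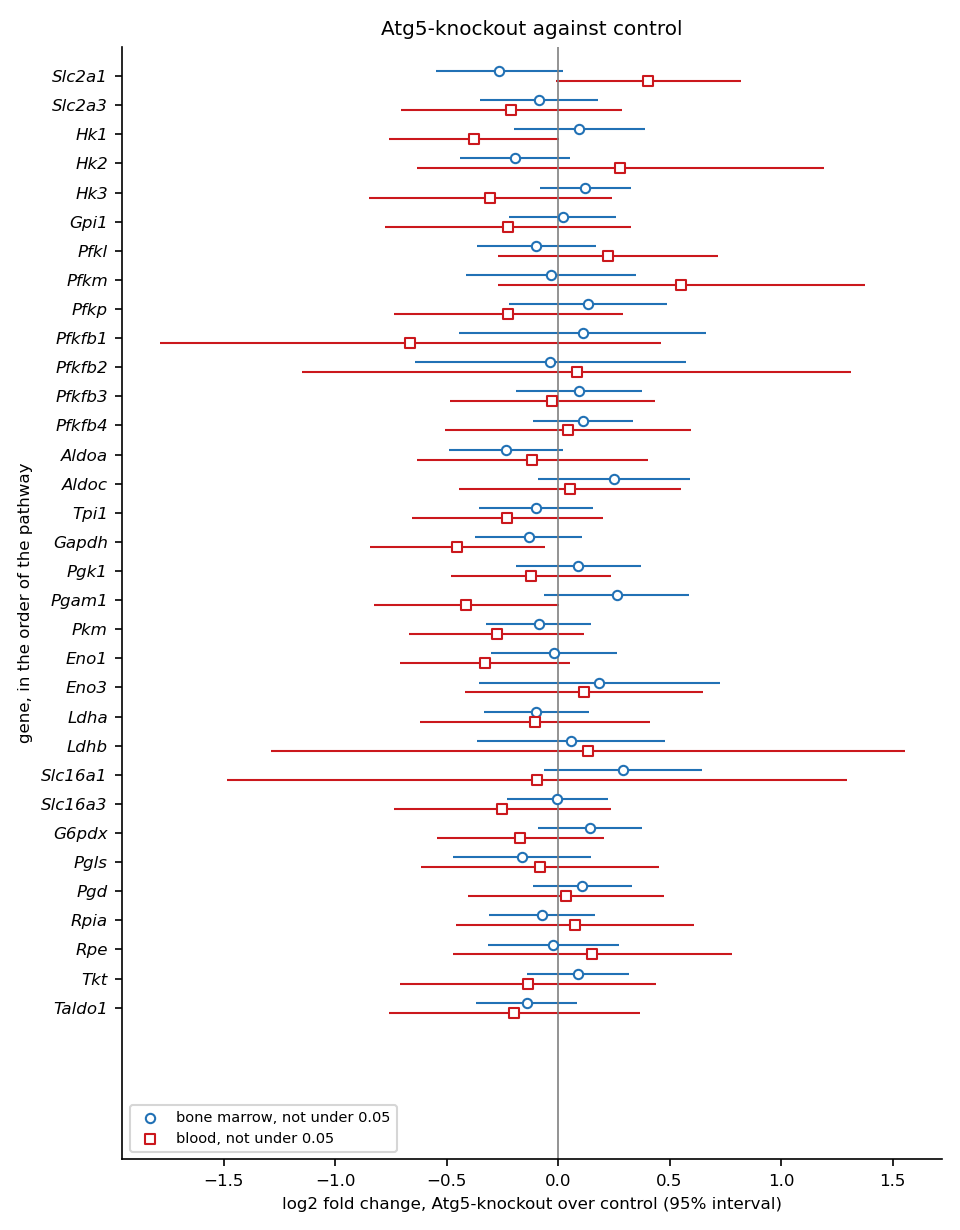
Log2 fold change of each of the 33 genes in Atg5-knockout over control eosinophils, with its 95% interval, in bone marrow (circles) and blood (squares); none has an adjusted p under 0.05. The bone marrow intervals are the narrower ones, and in blood most values lie left of 0, with Slc2a1 and Pfkm among those to the right.

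The test of whether blood and bone marrow differed by another amount in the Atg5-knockout than in the control gave no call for any of the 33 genes by edgeR, DESeq2 or limma-voom, nor for any of the 14712 genes tested by edgeR (0.0% higher and 0.0% lower). Before adjustment 3 genes were under 0.05 in edgeR: Pgam1 at 0.0134 (-0.72 ± 0.25), Slc2a1 at 0.0145 (0.62 ± 0.22) and Hk1 at 0.0359 (-0.52 ± 0.22). The intervals of 23 genes lay within a 2-fold difference. For Eno3 the difference was -0.12 (95% interval -0.81 to 0.58) and for Taldo1 -0.11 (-0.67 to 0.46).

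The counting of some of these genes was affected by near-identical copies. Gapdh, usually among the most abundant transcripts of a cell, stood at 18.1 to 30.7 TPM in the group means and had 14522 counts in all 12 libraries, far below its neighbours Aldoa (568821 counts) and Tpi1 (125711 counts). Gapdh has 186 copies in the table (90% identity or more across 50% or more of the copy's length), which took 6438 counts, 44.3% of the Gapdh count itself, and reads that map to several places were not counted. Pkm had copies with 33555 counts (8.98% of its own) and Pgam1 had copies with 1995 (6.68%). The levels of Gapdh, Pkm and Pgam1 are therefore uncertain, and in the other 9 genes with copies these held under 1% of the gene's own count. Adding the counts of the copies to their gene changed no call in any comparison. This cannot restore reads that mapped to several places, since those are in neither count. For the same reason a low copy count does not measure what was lost. Pgk1 has copies of 100% identity, and Eno1 has copies of 99.5 and 99.6%. The levels of Pgk1 and Eno1, and the enolase shares, are therefore also uncertain to an unknown degree.

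Beyond the 33 genes, 28 further genes of the same reactions, such as tissue-specific isoenzymes, were examined, of which 11 had enough counts to be tested. In control eosinophils 3 were higher in blood (27.3%, against 16.2% of all genes tested) and 2 lower (18.2%, against 18%). In Atg5-knockout eosinophils 1 was higher (9.09%, against 23.5%) and 2 were lower (18.2%, against 24.1%). The most significant in control were Tigar, which encodes a phosphatase that opposes phosphofructokinase (-2.11 ± 0.46, adjusted p = 0.00823), Bpgm, which makes the bisphosphoglycerate of red cells (4.94 ± 1.12, adjusted p = 0.00987), and Pgam2, the muscle phosphoglycerate mutase (1.72 ± 0.47, adjusted p = 0.0225). In Atg5-knockout eosinophils these gave -1.27, 0.19 and 0.79 and did not pass (adjusted p = 0.0564, 0.658 and 0.116). Of the same list Adpgk, an ADP-dependent glucokinase, was lower in both genotypes (-0.48 and -1.11, adjusted p = 0.045 and 0.000297), and Slc2a6, a glucose transporter family member, was higher in both (0.73 and 1.02, adjusted p = 0.0238 and 0.00371). These 2 were chosen after their values were seen. Without control blood library 1, the one rich in red cell genes, the log2 fold change of Bpgm was 2.35 (adjusted p = 0.000279). None of the 11 was called between genotypes in either tissue.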

How the data were processed

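Reads of stranded mRNA libraries (single-end) were aligned with HISAT2 and counted with featureCounts by the authors, who deposited raw read counts per gene with the merged exon length of each gene, without normalization. Per the file headers the annotation was Ensembl on GRCm38, with no option for strand and no counting of reads that map to several places, while the methods name GRCm39. Coordinates are those of GRCm38 and were not converted. Symbols matched 49674 of 53801 identifiers in GENCODE, used for symbols and transcripts only.

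Each pair of groups was fitted on its 6 libraries, and the interaction on all 12, with edgeR 4.0.16 in R 4.3.3: TMM, the edgeR filter (minimum count 10, minimum total 15), quasi-likelihood test, prior count 0.125, Benjamini-Hochberg adjustment over all genes tested. Standard errors are the log2 fold change divided by the square root of F. All 33 genes passed the filter in every comparison. Copies were found with BLAST 2.17.0. Scripts were tested on simulated counts. Alternatives were DESeq2 1.42.0, limma-voom (limma 3.58.1), DESeq2-type factors, no filter, 12 libraries in 1 fit, red cell genes left out, copies added, each library left out, and the study's thresholds (log2 fold change beyond 2).

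Blood libraries of the same number deviated together across genotypes (correlations 0.496, 0.205 and 0.295). The pairing of the blood libraries is taken from these values alone, and libraries of different numbers were not compared. The other comparisons gave -0.152 to 0.125, which does not settle whether libraries of the same number there came from the same mouse.

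The 33 genes and all lists were chosen with earlier results of these data known. All 33 are named, and of each further list the 3 genes with the lowest adjusted p in control blood against bone marrow.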

Additional observations from a re-analysis of the deposited data

How the results depend on the processing

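No value of the 33 genes that was called in a comparison changed direction under any alternative. The counts of 3 higher and 9 lower genes in control, and of 4 and 12 in Atg5-knockout eosinophils, became 1 and 2, and 1 and 2, under the study's thresholds, which keep only folds beyond 4 (Eno3, Ldhb and Slc16a1). Over all genes the same thresholds kept 599 higher and 710 lower of 13669 in control. In Atg5-knockout eosinophils they kept 729 and 849 of 13853. Leaving out each library in turn gave 2 to 6 higher and 8 to 9 lower genes in control, and 4 higher and 10 to 13 lower genes in Atg5-knockout eosinophils. The 6 came without control blood library 1 and added Gpi1, Slc16a3 and Tkt, and leaving out the 12 red cell genes instead gave 3 and 9. With the replicate block the counts were 3 and 9 in control and 4 and 11 in Atg5-knockout eosinophils, the lost gene being Eno1, and the block changed no other call. In 1 fit of 12 libraries Pfkp was added in control (4 higher) and Pfkfb1 in Atg5-knockout eosinophils (13 lower), and without the filter or with limma-voom Pfkfb3 was added there (13 lower). Between genotypes and in the interaction the count stayed at 0 in every alternative run. Where a bone marrow or blood group is left with 2 libraries, the spread rests on fewer samples. Low counts limit Pfkfb1, Pfkfb2, Ldhb, Pfkm and, in blood, Slc16a1. Multi-mapping reads limit Gapdh, Pkm and Pgam1, and may limit other genes with near-identical copies, such as Pgk1 and Eno1.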

Other observations

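Lists of genes around the pathway were also examined. Of 6 testable genes for other sources of NADPH, 1 was higher and 4 were lower in control blood than in bone marrow. Nadk, the kinase that makes NADP, rose by 1.49 ± 0.14 and 1.53 ± 0.12 on the log2 scale in control and Atg5-knockout eosinophils (adjusted p = 0.000137 and 1.83e-05), while Mthfd2 and Mthfd1, enzymes of folate metabolism, gave -2.70 ± 0.24 and -2.07 ± 0.25 in control (adjusted p = 8.12e-05 and 0.000425) and -2.67 and -2.31 in Atg5-knockout eosinophils. Among 6 genes of gluconeogenesis 1 was higher and 3 were lower in control blood, among them Pck2 (-0.94) and G6pc3 (-0.86). Fbp1, the fructose bisphosphatase, stood at 1.03 ± 0.0504 CPM in control bone marrow and 0.0327 ± 0.0567 CPM in control blood (mean ± SD), and was called lower (adjusted p = 0.00392), but with blood so near 0 no fold is given. Of 16 genes of glycogen metabolism 3 were higher, among them the glycogen phosphorylases Pygm (2.98 ± 0.41, adjusted p = 0.000908) and Pygl (0.80 ± 0.17, adjusted p = 0.00714) and the kinase subunit Phkg2 (1.20), and 3 were lower.

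Of 12 genes for the entry of pyruvate into mitochondria 2 were higher and 3 lower in control blood, among them Pdhx (-1.56), a part of the pyruvate dehydrogenase complex, its phosphatase Pdp2 (-1.35) and its inhibiting kinase Pdk2 (1.10). Of 8 genes of the hypoxia-inducible factor pathway 1 was higher, Hif1a (1.42 ± 0.35, adjusted p = 0.0133), and 3 were lower, including the prolyl hydroxylases Egln3 (-1.55 ± 0.25, adjusted p = 0.00191) and Egln1 (-0.84 ± 0.16, adjusted p = 0.00404). Of 12 known targets of that factor outside glycolysis 2 were higher, Ddit4 (3.17 ± 0.34, adjusted p = 0.000247) and Vegfa (1.86 ± 0.37, adjusted p = 0.00558), and 4 were lower, among them Ero1a (-1.23 ± 0.20, adjusted p = 0.00221). Over all genes tested 16.2% were higher and 18% lower in this comparison. In Atg5-knockout eosinophils all of the genes named here had the same sign and an adjusted p under 0.05, and none was called between genotypes where it was tested. Fbp1 was not tested between genotypes in blood.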
